A study of Homo sapiens with 8 samples.

Results

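Surface antigens of malignant plasma cells were examined in LP-1, a human myeloma cell line, through 9 genes of the 18564 in the gene table: SDC1, CD38, TNFRSF17, SLAMF7, GPRC5D, FCRL5, CD28, NCAM1 and CD27. The set was chosen with earlier results of these data known. Its genes were picked out by symbol, and all 9 were found in the table. Of these, 8 had counts in all 8 libraries, and FCRL5 had 0 counts in 3 of them. The wild-type (WT) line was compared with a bortezomib-resistant (BR) derivative, which the labels describe as kept with bortezomib, a proteasome inhibitor, for 2 months. SI-2, which inhibits the coactivator SRC-3, was given at 25 nM for 24 h to each line, with DMSO alone as the control, and 2 libraries were sequenced for each of the 4 conditions. The labels call the WT vehicle libraries untreated in one field and DMSO in their titles, and the titles were followed. All groups were made from LP-1, so every line difference below is between this line and 1 resistant derivative of it. RNA was measured, not protein at the cell surface.

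A plasma cell is an antibody-secreting cell that has left the B cell programme, and the antigens kept or gained on its surface are used to count myeloma cells in bone marrow and to direct antibodies, bispecific antibodies and CAR T cells to them. SDC1 encodes syndecan-1 (CD138), the heparan sulphate proteoglycan by which plasma cells are identified. CD38 is an ectoenzyme that consumes NAD and the target of daratumumab and isatuximab, TNFRSF17 encodes BCMA, the receptor for the survival factors BAFF and APRIL, and SLAMF7 is the target of elotuzumab. GPRC5D, an orphan receptor bound by talquetamab, and FCRL5, an Fc receptor-like protein bound by cevostamab, are further targets. CD28, a costimulatory receptor best known from T cells, NCAM1 (CD56), an adhesion molecule, and CD27, the receptor for CD70, are typed on myeloma cells in diagnosis.

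Estimated counts summed to 17997771 to 18570027 per library, so that depth hardly differed. The genes of plasma cell identity were high in every library (summed FPKM of the 6 genes, 3840 to 5430), whereas the B cell genes PAX5, MS4A1 and CD22 had at most 2 counts in any library and BACH2 carried most of the 1075.9 to 1886.3 counts of that list. The 4 T and NK cell genes summed to 2 to 52 counts, the 3 myeloid genes to 45.57 to 94.68, mostly LYZ, and the 2 erythroid genes to 0 to 3. The second BR SI-2 library stood apart. Its 4 stromal genes summed to 1383 counts, against 3 to 10 in the other 7 libraries, with 1032 counts for COL1A1, the main collagen of fibroblasts, and 40 for GNLY, a cytotoxic granule gene that had at most 5 elsewhere. The part of these transcripts in the members' values was not tested, and the values without that library are given for log2 fold changes of named genes that it moved by over 1.5 times or whose call it ended.

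The upstream sequences of CD38 and CD28 are shown because theirs were the member windows that held the motif described here. The sequences were thus picked by the motif and not by expression. Of the 9 genes, 6 had a window in the RefSeq promoter table (GRCh38.p14), which runs from 250 bases before to 50 after the gene start. The motif GGAA, any 2 bases and GAAA, on either strand, which is known as a composite site of ETS factors and IRF4, was found in 989 of all 35116 windows (2.82%) and in those of 2 of the 6 members, CD38 and CD28. The 250 bases before each start are printed 5′ to 3′ on the gene's strand, with the match in capitals. The CD38 window, chr4:15778078.0-15778327.0 on the plus strand, has the match beginning 43 bases before the start, and the CD28 window, chr2:203706389.0-203706638.0 on the plus strand, has it on the opposite strand, beginning 14 bases before the start. A match is a description of the sequence and not evidence of binding.
CD38: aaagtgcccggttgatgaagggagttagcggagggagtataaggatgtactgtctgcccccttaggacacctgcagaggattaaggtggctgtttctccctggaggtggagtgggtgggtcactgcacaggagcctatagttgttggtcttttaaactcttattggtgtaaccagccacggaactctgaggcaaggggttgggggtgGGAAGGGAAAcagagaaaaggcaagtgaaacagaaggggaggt
CD28: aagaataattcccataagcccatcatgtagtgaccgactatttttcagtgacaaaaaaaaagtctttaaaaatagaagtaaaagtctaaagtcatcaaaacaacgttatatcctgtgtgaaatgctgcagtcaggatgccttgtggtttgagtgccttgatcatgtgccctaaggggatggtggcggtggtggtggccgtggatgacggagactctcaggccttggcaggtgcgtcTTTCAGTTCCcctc

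Levels are compared between genes as FPKM, a count scaled by gene length and library size. TNFRSF17 was by far the highest member, with 283 ± 62.2 FPKM (SD, n = 8), above 98.9% of all genes. CD38 followed with 41.4 ± 10.5 (SD, n = 8) and CD28 with 17.9 ± 3.55 (SD, n = 8). GPRC5D (9.38 ± 1.36; SD, n = 8), SDC1 (7.79 ± 2.26; SD, n = 8) and NCAM1 (5.23 ± 1.15; SD, n = 8) formed a middle group. CD27 had 1.94 ± 0.257 FPKM (SD, n = 8), SLAMF7 0.421 ± 0.0943 (SD, n = 8) and FCRL5 0.0213 ± 0.0203 (SD, n = 8), the last above only 12.2% of genes. The ranges of neighbours in this order did not overlap except those of GPRC5D and SDC1 and those of SDC1 and NCAM1. GPRC5D was above SDC1 in 7 of 8 libraries, and SDC1 was above NCAM1 in 8 of 8. Within a library TNFRSF17 was 4.92 to 9.02 times CD38. SDC1, the defining antigen of plasma cells, was thus above only 61.3% of genes in these cells, and SLAMF7 was near the lower limit of what could be tested.

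**Figure D1:**
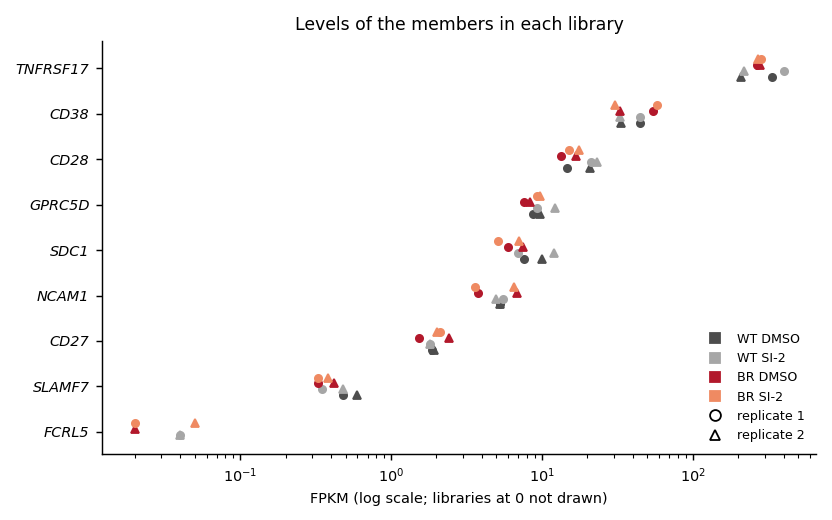
FPKM of the 9 members in each of the 8 libraries on a log axis, with colours for the 4 conditions and symbols for the replicate number. TNFRSF17 lies from 208.99 to 402.49 and SLAMF7 from 0.33 to 0.6, and for FCRL5 the 3 libraries at 0 are not drawn.

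Between libraries, levels are given as CPM, the count scaled by library size and TMM factor and thus not by gene length. TNFRSF17 had 334.3 and 205.8 CPM in the WT DMSO libraries, 389.5 and 216.1 in WT SI-2, 267.0 and 263.1 in BR DMSO and 281.7 and 248.3 in BR SI-2. The WT libraries lay on both sides of the BR libraries, which were close to each other. CD38 had 263.0 and 195.4 CPM in WT DMSO, 255.1 and 192.7 in WT SI-2, 320.9 and 182.6 in BR DMSO and 337.5 and 165.0 in BR SI-2, with the first library above the second in each condition. The ranges of the lines overlapped for both genes.
SDC1 had 24.1 and 31.2 CPM in WT DMSO, 21.0 and 38.3 in WT SI-2, 19.2 and 22.5 in BR DMSO and 16.5 and 21.2 in BR SI-2. Only the first WT SI-2 library lay within the BR range. CD28 had 78.0 and 108.4 CPM in WT DMSO, 108.3 and 120.7 in WT SI-2, 70.4 and 82.6 in BR DMSO and 77.7 and 84.6 in BR SI-2. Here the first WT DMSO library was the one within the BR range, and the other 3 WT libraries were above all BR libraries.
GPRC5D had 11.4 and 13.1 CPM in WT DMSO, 11.3 and 14.7 in WT SI-2, 9.61 and 10.5 in BR DMSO and 11.1 and 11.1 in BR SI-2, and all 4 BR libraries lay below all 4 WT libraries, by a small margin. NCAM1 had 32.5 and 32.2 CPM in WT DMSO and 33.0 and 30.4 in WT SI-2, but 23.6 and 40.0 in BR DMSO and 22.2 and 37.2 in BR SI-2. The WT libraries were alike, whereas the BR libraries fell on either side of them by replicate number.
CD27 had from 43 to 64 counts, with 2.56 and 2.77 CPM in WT DMSO, 2.80 and 2.50 in WT SI-2, 2.43 and 3.40 in BR DMSO and 2.96 and 2.65 in BR SI-2. The lines overlapped. Whether strand was used in counting is not given in the sources used here, so reads of CD27 and of its antisense gene CD27-AS1 cannot be told apart. SLAMF7 had 1.18 and 1.53 CPM in WT DMSO, 0.897 and 1.19 in WT SI-2, 0.862 and 1.04 in BR DMSO and 0.911 and 0.940 in BR SI-2, on 15.25 to 27.68 estimated counts, and its ranges overlapped as well.
FCRL5 was at or near the limit of detection. It had 0 and 0 counts in WT DMSO, 3 and 4 in WT SI-2, 0 and 2 in BR DMSO and 2 and 5 in BR SI-2. A count of 0 allows up to 3 counts, or 0.170 CPM in the first BR DMSO library, for counting error only. The SI-2 libraries had 2 to 5 counts and the DMSO libraries 0 to 2, and the gene had too few counts to be tested.

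**Figure D2:**
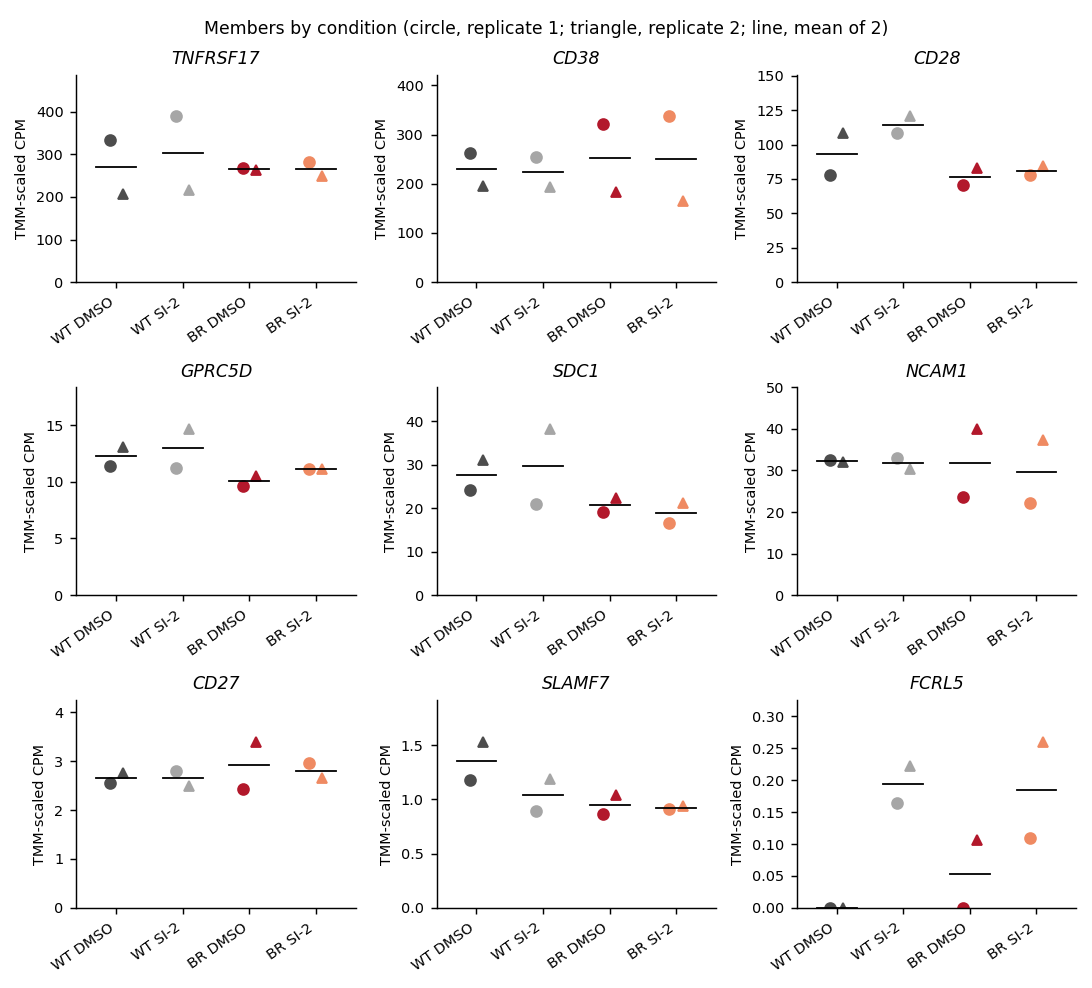
TMM-scaled CPM of each member by condition, with 2 libraries a condition (circle, replicate 1; triangle, replicate 2) and their mean as a line, on axes that start at 0. SDC1, CD28 and GPRC5D sit lower in BR, with means of 19.8, 78.8 and 10.6 CPM against 28.6, 103.8 and 12.6 in WT, and none of these differences passed the adjustment over all genes. The CD38 circles lie above the triangles in all 4 conditions.

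The comparison of BR with WT cells asked whether the resistant derivative carried other levels of these antigens. None of the 8 members tested passed an adjusted p under 0.05 when the treatments were pooled, 4 libraries a line (edgeR, quasi-likelihood F-test, Benjamini-Hochberg over 13520 genes), against 49 genes or 0.362% of all tested. At an unadjusted p under 0.05 there were 2 of 8, SDC1 and CD28, against 14.4% of all genes, and DESeq2 also called 0 of the 8. The fit took the 4 libraries of a line as independent. The differences between libraries 2 and 1 correlated over genes between DMSO and SI-2, at 0.436 in WT and 0.373 in BR. The SEs and p-values of the pooled line comparison may thus be too small. In bulk RNA, fewer cells carrying an antigen and less RNA per cell cannot be told apart. SDC1 averaged 19.8 ± 2.59 CPM (SD, n = 4) in BR and 28.6 ± 7.69 (SD, n = 4) in WT, a log2 fold change of -0.53 (SE 0.18, 95% interval -0.93 to -0.12, adjusted p = 0.242 with edgeR). CD28 averaged 78.8 ± 6.30 CPM (SD, n = 4) in BR and 103.8 ± 18.2 (SD, n = 4) in WT, a log2 fold change of -0.40 (SE 0.13, 95% interval -0.69 to -0.10, adjusted p = 0.233 with edgeR). Without the second BR SI-2 library the values were -0.56 for SDC1 and -0.43 for CD28.
GPRC5D had a log2 fold change of -0.25 (SE 0.13, 95% interval -0.53 to 0.03, adjusted p = 0.397 with edgeR). It was the 1 member of the 8 whose libraries parted 4 from 4 by line, as did 8.14% of all genes. The others were SLAMF7 at -0.34 (95% interval -0.86 to 0.18), TNFRSF17 at -0.11 (-0.53 to 0.30), NCAM1 at -0.06 (-0.46 to 0.35), CD27 at 0.11 (-0.27 to 0.48) and CD38 at 0.15 (-0.36 to 0.66), with adjusted p from 0.536 to 0.909 (edgeR). For CD38 the log2 fold change was 0.31 without the second BR SI-2 library and -0.02 without the first, and for TNFRSF17 it was 0.07 without the first WT SI-2 library. For NCAM1 it was -0.16 without the second BR SI-2 library. For SLAMF7 it was -0.19 without the second WT DMSO library, and for CD27 it was 0.01 without the second BR DMSO library. In all, 6 members had a lower and 2 a higher value in BR, where 50.9% of all genes tested were higher. The median log2 fold change of the members was -0.18, while the median of all genes was 0.0042. The members were not tested as a set. The intervals of TNFRSF17, CD38, NCAM1, CD27 and SLAMF7 covered log2 changes of 0.18 in either direction.
With the treatments apart, 2 libraries were compared with 2. In DMSO no member was called and 0 of 8 had an unadjusted p under 0.05, where 0% and 3.89% of 13896 genes did. In SI-2 no member was called, against 1 gene or 0.00720%, and 2 of 8 had an unadjusted p under 0.05, against 4.09% of genes. These were SDC1, with a log2 fold change of -0.65 (SE 0.29, adjusted p = 0.998, edgeR), and CD28, with -0.50 (SE 0.19, adjusted p = 0.998, edgeR). The SDC1 value was -0.16 without the second WT SI-2 library and -1.03 without the first.

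**Figure D3:**
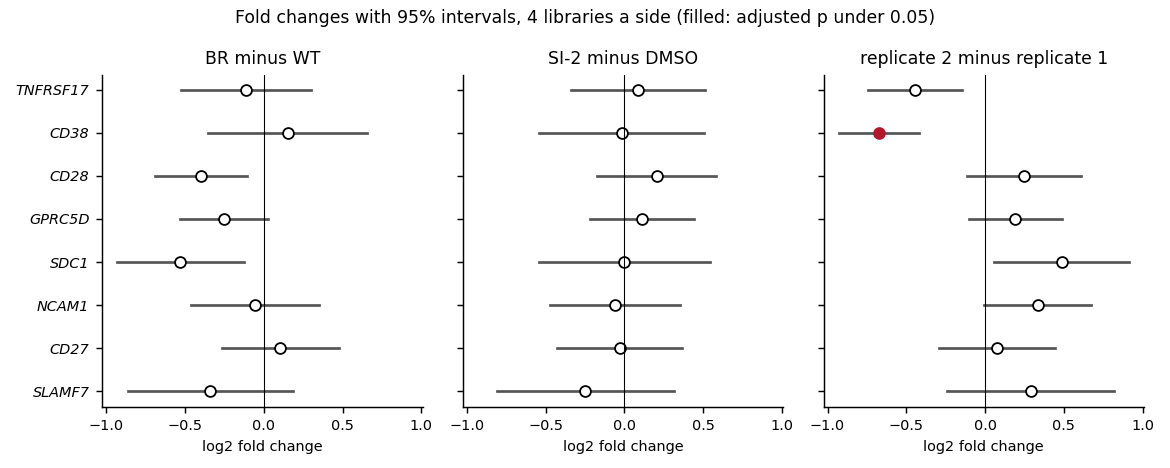
Log2 fold change with its 95% interval (edgeR) for the 8 members tested, by line, by treatment and by replicate number, with 4 libraries a side in each panel; a filled point has an adjusted p under 0.05. In the first panel the intervals of SDC1 and CD28 lie below 0 but no point is filled, in the second all 8 intervals cover 0, and in the third CD38 is the filled point.

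SI-2 was compared with DMSO to ask whether inhibition of SRC-3 changed these antigens. No member was called with both lines together, and 0 of 8 had an unadjusted p under 0.05, where 0% and 2.22% of all genes did. The log2 fold changes ran from -0.25 for SLAMF7 (95% interval -0.81 to 0.31) to 0.20 for CD28 (-0.17 to 0.58). They were 0.11 for GPRC5D (-0.22 to 0.44), 0.09 for TNFRSF17 (-0.34 to 0.51), 0.00 for SDC1 (-0.54 to 0.54), -0.02 for CD38 (-0.54 to 0.51), -0.03 for CD27 (-0.43 to 0.36) and -0.06 for NCAM1 (-0.47 to 0.35), and every adjusted p was at least 0.999 (edgeR). The SLAMF7 value was -0.08 without the second WT DMSO library, and that of CD28 was 0.08 without the second WT SI-2 library. Of the 8 tested members, 0 parted 4 from 4 by treatment, against 1.41% of all genes. Without the second BR SI-2 library the value was 0.12 for CD38, -0.17 for NCAM1, 0.06 for SDC1, 0.14 for TNFRSF17 and -0.02 for CD27.
In WT cells alone 0 of 8 members were called and 0 had an unadjusted p under 0.05 (all genes, 0% and 0.533%), and in BR cells the numbers were the same (0% and 1.20%). The interaction, which tests whether the SI-2 effect differed between the lines, gave 0 of 8 at either threshold (0% and 0.533%). Its values for the members ran from -0.24 for SDC1 to 0.39 for SLAMF7. With both lines together, log2 changes beyond 0.6 in either direction lay outside the 95% intervals of every tested member except SLAMF7. This does not hold within a line, where the intervals were wider. For CD38 they were -0.857 to 0.789 in WT and -0.825 to 0.819 in BR.

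The labels number the libraries of each condition 1 and 2, without saying what the number stands for, and the members were compared by it after the data had been seen. CD38 was called: the 4 libraries numbered 2 averaged 183.9 ± 13.8 CPM (SD, n = 4) and the 4 numbered 1 averaged 294.1 ± 41.2 (SD, n = 4), a log2 fold change of -0.68 (SE 0.11, 95% interval -0.93 to -0.42, adjusted p = 0.0375 with edgeR). It was lower in 4 of 4 conditions, with a ratio of 0.743 in WT DMSO, 0.755 in WT SI-2, 0.569 in BR DMSO and 0.489 in BR SI-2. This made 1 of 8 members, against 0.925% of all genes called and 16.9% at an unadjusted p under 0.05, which 3 of 8 members had. Without the second BR SI-2 library the log2 fold change was -0.63 (adjusted p = 0.0871, edgeR) and 0 genes were called in place of 125. The CD38 call remained without the first WT SI-2 library (adjusted p = 0.0416, edgeR) and was lost when any of the other 7 libraries was left out. The CD38 difference by number was thus larger than the 0.15 between the lines, and between the lines CD38 was higher in BR in the libraries numbered 1 and lower in those numbered 2.
TNFRSF17 was also lower in all 4 libraries numbered 2 than in all 4 numbered 1, with a log2 fold change of -0.45 (SE 0.14, adjusted p = 0.137 in edgeR and 0.0394 in DESeq2), so that 2 of 8 members parted by number, against 12.0% of all genes. Its ratio was 0.616 and 0.555 in the WT conditions but 0.985 and 0.881 in the BR conditions. TNFRSF13B (TACI), another receptor for APRIL and BAFF, had 170.8, 136.8, 223.1 and 205.7 CPM in the libraries numbered 1 and 134.2, 134.2, 113.0 and 114.4 in those numbered 2, in the order WT DMSO, WT SI-2, BR DMSO and BR SI-2. It gave a log2 difference of -0.57 (adjusted p = 0.093 in edgeR and 0.0112 in DESeq2). SDC1 went the other way, at 0.49 (adjusted p = 0.235, edgeR), and was higher in the library numbered 2 in each condition, with ratios from 1.17 to 1.82. For NCAM1 the value was 0.33 (adjusted p = 0.306, edgeR), with ratios of 1.69 and 1.68 in BR and 0.990 and 0.922 in WT.

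The table of transcripts gave a single RefSeq transcript for CD38 and for TNFRSF17, so neither could vary in composition. CD28 was carried mainly by NM_006139.3 with 69.3 ± 3.35% of its FPKM (SD, n = 8), and GPRC5D by NM_018654.1 with 72.8 ± 7.37% (SD, n = 8). SDC1 was divided among 5 transcripts, with 48.4 ± 9.60% (SD, n = 8) for NM_002997.4, and SLAMF7 among 13, of which none was above 0 in all libraries. Reads common to transcripts of a gene were divided among them by estimation, so small shares are uncertain.
The NCAM1 transcripts took different shares in the libraries numbered 1 and 2. NM_000615.6 took 55.4% of the NCAM1 FPKM in WT DMSO, 33.0% in WT SI-2, 50.5% in BR DMSO and 36.3% in BR SI-2 in the libraries numbered 1. In the libraries numbered 2 it took 89.8%, 73.9%, 82.1% and 98.2% in the same order, and the ranges did not overlap. NM_181351.4 took 43.1% to 65.9% in the first and 0% to 24.4% in the second. Of the 16 transcripts of the members with a mean share of at least 10%, in genes with 2 or more transcripts and FPKM above 0 in all libraries, these 2 of NCAM1 parted 4 from 4 by number, against 3.40% of 28107 such transcripts over all genes. Shares within a gene depend on each other, and no test was made of them.

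**Figure D4:**
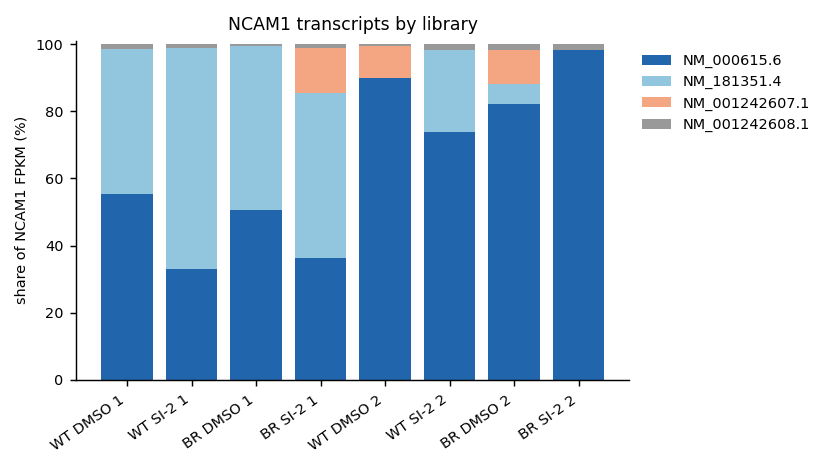
Share of the summed NCAM1 FPKM taken by each of 4 RefSeq transcripts, as stacked bars for the 8 libraries, with the libraries numbered 1 on the left and those numbered 2 on the right. The share of NM_000615.6 is at most 55.4% on the left and at least 73.9% on the right.

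The other genes of each member's family or pathway were read from lists that were chosen with earlier results of these data known. SLAMF7 belongs to the SLAM family, receptors on blood cells of which most lie side by side on chromosome 1, and in the RefSeq order (GRCh38.p14, used for order only) it lies between CD48 and LY9. LY9 (SLAMF3) had 31.2 and 33.3 CPM in WT DMSO, 35.1 and 36.1 in WT SI-2, 14.5 and 15.5 in BR DMSO and 16.4 and 14.3 in BR SI-2. No BR library came near a WT library. LY9 fell in BR by a log2 fold change of -1.16 (SE 0.10, adjusted p = 0.00078, edgeR), with the 4 libraries of a line taken as independent. It was the 1 called gene of the 4 tested in its list of 8, where 0.362% of all genes tested were called. Its value was -1.13 (adjusted p = 0.00624, edgeR) without the second BR SI-2 library, -1.10 in DMSO alone (adjusted p = 0.136, edgeR) and -1.22 in SI-2 alone (adjusted p = 0.172, edgeR), so it was not called with 2 libraries a side.
CD48, a ligand of the family with a lipid anchor, had 30.2 and 36.8 CPM in WT DMSO, 33.3 and 44.0 in WT SI-2, 17.7 and 16.0 in BR DMSO and 24.9 and 14.3 in BR SI-2. Its libraries parted by line, as did 8.14% of all genes. Its log2 fold change of -0.98 (SE 0.18, 95% interval -1.38 to -0.59) just missed the threshold (adjusted p = 0.0545, edgeR). The adjusted p was 0.143 (edgeR) without the second BR SI-2 library, and over the alternatives it ran from 0.000136 with DESeq2 to 0.167. CD84, on the far side of CD48, had a log2 fold change of 0.02 and SLAMF6 one of -0.35, neither called. SLAMF7, between CD48 and LY9, had 0.421 FPKM against 24.1 for CD48 and 11.7 for LY9, so its own line difference rests on few counts. SLAMF1 had at most 1 count in any library.

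**Figure D5:**
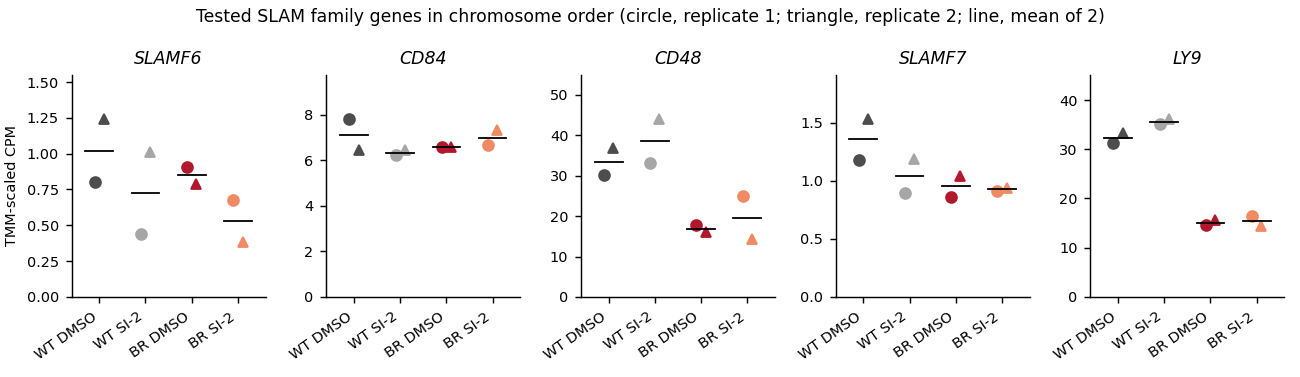
TMM-scaled CPM of SLAMF6, CD84, CD48, SLAMF7 and LY9, the tested genes of the SLAM cluster in chromosome order, by condition with 2 libraries each and their mean. LY9 lies at 31.2 to 36.1 in WT and 14.3 to 16.4 in BR, and CD48 at 30.2 to 44.0 and 14.3 to 24.9, while CD84 lies between 6.23 and 7.81 throughout.

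For TNFRSF17, the list held its ligands, the sister receptors and the subunits of gamma-secretase, the protease that sheds BCMA from the cell. All 10 were tested and 0 were called, with 5 higher and 5 lower in BR and a median log2 fold change of -0.04. APH1A, a gamma-secretase subunit, was highest with 120.5 FPKM, followed by TNFRSF13B with 114, which differed between the lines by 0.19 on the log2 scale (adjusted p = 0.714, edgeR), or by 0.33 without the second BR SI-2 library. The ligand genes TNFSF13B and TNFSF13 were low, with 0.405 and 0.383 FPKM.
Of the ligands and partners of CD28, CD27 and SLAMF7, 8 of 9 were in the table, 3 could be tested and 0 were called. CD70, the ligand of CD27, was expressed at 40.2 FPKM by cells in which CD27 itself had 1.94, and in BR it differed by 0.16 on the log2 scale (adjusted p = 0.569, edgeR), or by 0.09 without the second BR SI-2 library. SIVA1, which binds the tail of CD27, had 47.9 FPKM. CD80, a ligand of CD28, had at most 3 counts in any library, so CD28 was present with hardly any RNA of this ligand. CD86, also in this list, was the gene not found, so RNA for ligands of CD28 was measured only in part. ICOSLG, in the same list, had 1.185 FPKM.
Of the 8 genes of syndecans and heparan sulphate, 6 were tested and 0 called. ADAM10, a protease that sheds many surface proteins, had 74.1 FPKM and was higher in all 4 BR than in all 4 WT libraries. By line, 8.14% of all genes parted 4 from 4. The log2 fold change of ADAM10 was 0.38 (SE 0.11, adjusted p = 0.176 in edgeR and 0.0363 in DESeq2, and 0.37 in edgeR without the second BR SI-2 library). EXT1, which builds heparan sulphate chains, had 20.3 FPKM and was lower in all 4 libraries numbered 2, where 12.0% of all genes parted by number. Its log2 fold change was -0.50 (adjusted p = 0.0558 in edgeR and 0.00114 in DESeq2).
Of the 6 ectoenzymes and complement inhibitors listed with CD38, 5 were tested and 0 called. CD59 and CD46, which protect cells from complement, had 96.1 and 49.2 FPKM. Of 3 relatives of GPRC5D, GPRC5B alone was tested. It had 1.93 and 1.60 CPM in WT DMSO and 1.47 and 2.07 in BR DMSO, and 3.68 and 3.11 in WT SI-2 and 2.25 and 2.96 in BR SI-2. All its SI-2 libraries were thus above all its DMSO libraries, where 1.41% of all genes parted by treatment. Its log2 fold change of 0.76 (SE 0.21, 95% interval 0.29 to 1.23) did not pass (adjusted p = 0.999, edgeR). GPRC5A, the next highest of that family, had 0.0838 FPKM. Of 7 relatives of FCRL5, 2 were tested and 0 called, and the highest were FCRLB with 3.66 and FCRL1 with 0.166 FPKM.
Among 16 other surface antigens typed in myeloma, 12 were tested and 0 called, with 9 higher and 3 lower in BR and a median log2 fold change of 0.11. CD74, the invariant chain of MHC class II, had 927 FPKM and ITGB7, an integrin chain, 653, both above TNFRSF17. Among 10 intracellular drug targets, 10 were tested and 0 called, and the highest were TXNDC5 with 1705 FPKM and MCL1, a survival protein, with 413. SI-2 gave 0 calls in any of these lists with edgeR, in which GPRC5B was the 1 gene with an unadjusted p under 0.05 in both lines together.

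The genes whose pattern over the 8 libraries was most like that of a member were sought for the 3 tested members with the widest range, among 10413 genes with a mean of at least 5 CPM. The measure was the root mean square difference of centred log2 CPM. For SDC1 these were PTPRJ (0.114) and ANKS6 (0.118), where the spread of SDC1 itself was 0.363. For CD38 they were KIF20A (0.0801) and RSAD1 (0.106), against a spread of 0.363, and for TNFRSF17 they were KCTD3 (0.0600) and MMP16 (0.0801), against 0.285. KIF20A and RSAD1, like CD38, were higher in the library numbered 1 than in that numbered 2 in each condition. All these likenesses are descriptions over libraries that share 2 lines, 2 treatments and the replicate numbers 1 and 2.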

How the data were processed

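RNA from 8 LP-1 libraries was sequenced by the authors on BGISEQ-500. Reads in which more than 20% of bases had a quality under 10 were removed, and expression levels were calculated per gene. The submitters' processing notes name BWA, Bowtie2, RSEM and hg19, without versions. The deposited table holds FPKM and estimated counts for each gene and transcript. The estimated counts need not be whole because the authors' tool divides shared reads, and 6 of the 9 members had whole counts in all libraries. Columns of averages and the authors' own DEGseq comparisons were not used.

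Estimated counts were rounded, filtered with filterByExpr (minimum count 10), scaled by TMM (factors 0.971 to 1.058) and tested in edgeR 4.0.16 (quasi-likelihood F-test, Benjamini-Hochberg), in 1 fit of 4 conditions (13896 genes) and in fits of 4 against 4 libraries (13520 genes). Intervals use the total (residual and prior) degrees of freedom of the fit. The alternatives were DESeq2 1.42.0, library-size scaling, no filter, the replicate number as a block, condition terms, only the libraries compared, and each library left out. Nothing in the labels says that replicates were separate cultures, while a legend of the study gives 2 independent experiments. Depth was 17997771 to 18570027 counts per library, and the limit of 3 counts for a 0 covers counting error only. R 4.3.3, Python 3.11.15, pandas 2.3.3 and matplotlib 3.10.9 were used. Named genes were all members, any listed gene called in a comparison, and the 2 genes of each list with the highest mean FPKM. Further listed genes (CD84, SLAMF6, SLAMF1, TNFSF13B, TNFSF13, CD80, ICOSLG) were named after their values were seen. The 9 members and the lists were chosen with earlier results of these data known. The comparison by replicate number was added after the data had been seen.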

Additional observations from a re-analysis of the deposited data

How the results depend on the processing

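Counts of called genes depended on the tool. DESeq2 called 25 genes for BR against WT in DMSO, 32 in SI-2, 408 with both treatments, 3 for SI-2 in BR cells and 778 by replicate number. Without the filter 3 genes were called in DMSO. With the replicate number as a block 1 gene was called in DMSO and 155 with both treatments. The replicate differences correlated at 0.436 between WT DMSO and WT SI-2 and at 0.373 between BR DMSO and BR SI-2. Between conditions of different lines they correlated at -0.121 to 0.196. The main fits did not pair libraries by number, and a pairing by number within each line was not tested. Condition terms gave 18 genes for BR against WT and 0 by replicate number, and only the libraries compared gave 1 in DMSO and 3 in SI-2. Leaving out 1 library gave 0 to 67 genes for BR against WT in SI-2, 0 to 67 for SI-2 in BR cells, 21 to 125 for BR against WT and 0 to 93 by replicate number, with 125 genes without the first WT SI-2 library, 86 without the first BR DMSO library, and 21, 24, 27, 29 and 32 without the second WT SI-2, second BR DMSO, second WT DMSO, first BR SI-2 and second BR SI-2 libraries for BR against WT. The cause of these differences was not tested.

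Among the members, the SI-2 value of SDC1 was -0.001 with DESeq2, -0.005 without the filter, -0.027 with the replicate block and -0.022 with condition terms, and that of CD38 was 0.004 with library size only. With 1 library left out, BR against WT ran from -0.023 to 0.307 for CD38, -0.208 to 0.073 for NCAM1, -0.24 to 0.072 for TNFRSF17 and 0 to 0.331 for TNFRSF13B. SI-2 against DMSO ran from -0.095 to 0.079 for CD27, -0.234 to 0.147 for CD38, 0 to 0.197 for GPRC5D, -0.184 to 0.067 for NCAM1, -0.311 to 0.147 for SDC1 and -0.104 to 0.206 for TNFRSF17, and the replicate comparison from -0.024 to 0.142 for CD27. The call of CD38 by replicate number was lost with condition terms (-0.67) and remained in 1 of 8 omissions (adjusted p 0.0416 to 0.109, edgeR), and that of LY9 between the lines in 8 of 8 (0.00188 to 0.00698, edgeR). CD48 passed with the replicate block (0.0451, edgeR), with library size only (0.0445), without the filter (0.0417) and without the first WT SI-2 (0.0491) or first BR SI-2 library (0.0189), and TNFRSF13B passed by replicate number without the first WT SI-2 library (0.049). FCRL5 had too few counts to be tested. Leaving out 1 library moved the SI-2 value of SLAMF7 between -0.373 and -0.082 and that of CD28 between 0.084 and 0.343.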
